A study of Mus musculus with 22 samples.

Results

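The genes examined encode 9 subunits of canonical Polycomb repressive complex 1 (PRC1) and were listed by name: Cbx2, Cbx6, Cbx7, Cbx8, Phc1, Phc2, Phc3, Bmi1 and Pcgf2. They are 9 of the 21887 protein-coding genes of the mouse mm10 table. For each gene, every ChIP-seq peak that touched the gene body or the 1 kb beyond either gene end was collected from 16 peak lists. These regions had a median length of 15614 bp, against 19169 bp over all genes. All 9 genes had a peak in at least 1 list, and the number of lists with a peak ran from 2 for Phc3 to 14 for Cbx2 and Cbx7.

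The peaks came from small intestinal crypts, the stem cell-bearing pits of the epithelium, taken from C57BL/6 mice that were wild type (WT) or had lost Pcgf6 (knockout, KO), and from WT embryonic stem cells (ESC) of the line E14. Pcgf6 was removed by Cre recombinase in adults, in one line with AhCre, driven by an inducible promoter that is not restricted to the intestine, and in the other with the Villin driver, which is active in intestinal epithelium. The design text gives male mice of 8 to 12 weeks, taken 7 days after Tamoxifen (Villin) or BNF (AhCre), but it describes RNA isolation, so whether this holds for the chromatin was not stated. AhCre crypts were profiled for PCGF6, RING1B and H2AK119ub1, Villin crypts for RING1B, H2AK119ub1, CTCF and RAD21, each in WT and KO, and ESC for PCGF6 and RING1B. Chromatin for H2AK119ub1 carried 5% Drosophila S2 chromatin. How many mice or pools made up a library was not stated. With a single library in every group (1 each), replicate error is unknown and no test between groups was possible, and each count of members is set beside the same count over all protein-coding genes.

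Each peak carries a score of 10 or more, the −log10 of a p or q value (which of them was not stated), and scores are not scaled between libraries. The lists held between 1662 and 32651 peaks and no read counts, so depth is unknown. Part of the difference between lists of unequal length can be one of detection, and a peak near a score of 10 is near the limit of its list. Crypt preparations mix cell types. The crypt epithelium genes Epcam, Cdh1, Vil1, Krt8, Krt19, Cdx1 and Cdx2 had a PCGF6 peak in 7 of 7 cases in WT crypts, and H2AK119ub1 in 1 of 7 (AhCre, Krt19) and 0 of 7 (Villin). Of 7 mesenchyme and muscle genes, PCGF6 lay at 3 in WT crypts, and H2AK119ub1 at 5 (AhCre WT) and 4 (Villin WT). Of 5 blood cell genes these counts were 1, 1 and 0, and of 3 endothelium genes 0, 1 and 1. The shares over all genes were 47.9%, 20.6% and 13.6% in the same order. The part of other cell types in the member peaks was not tested, and fewer cells with a mark and less of it per cell cannot be told apart. The peak at Pcgf6 itself had a PCGF6 score of 20.8 in WT crypts and none in KO crypts. By the rule given below, 62.7% of all genes with a WT PCGF6 peak lost it, so this is no check of the deletion. The KO list still held 4779 PCGF6 peaks, with scores of up to 1458.

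PRC1 is a ubiquitin ligase built on RING1A or RING1B with a PCGF protein, and it places H2AK119ub1, a mark of silent genes. In canonical PRC1 the PCGF partner is BMI1 or PCGF2 (MEL18), a CBX protein reads the trimethylated H3K27 left by PRC2, and a PHC protein polymerises through its SAM domain and compacts chromatin. PCGF6 instead belongs to a variant form, PRC1.6, which carries L3MBTL2 and is brought to DNA by MGA with MAX and by E2F6. BMI1 and CBX7 are known repressors of the Cdkn2a locus and support the self-renewal of stem cells, those of the intestine included. CTCF is an insulator protein and RAD21 a subunit of the cohesin ring, which CTCF halts on DNA.

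Start sites of 8 of the genes were covered by 10 promoter windows of RefSeq on mm10, each holding the 250 bases before a start (Phc2 has 3 starts, and Cbx2 has no entry). Cbx7 and Pcgf2 extend upstream past their windows, so the bases before their annotated 5′ gene ends were not searched. These windows were searched on both strands for 3 words linked to the DNA-binding subunits of PRC1.6. The first was CACGTG, the E-box of MAX dimers, which is its own reverse complement. The second was GCGGGAA, an E2F site with the reverse complement TTCCCGC, and the third AGGTGTGA, a T-box site with the reverse complement TCACACCT. None of the words contains another. CACGTG was found in 6 of the 10 windows, those of 6 genes, against 6.02% of all 32851 windows. The stretches below show it in capitals with up to 40 bases on either side, written 5′ to 3′ along the gene, because it was the one of these words found in any member window.

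Cbx6, chr15:79834334-79834399, minus strand: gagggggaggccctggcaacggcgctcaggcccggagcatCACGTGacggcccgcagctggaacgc
Cbx8, chr11:119040966-119041051, minus strand: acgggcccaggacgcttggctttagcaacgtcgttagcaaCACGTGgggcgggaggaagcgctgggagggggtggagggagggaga
Phc2, chr4:128654605-128654690, plus strand: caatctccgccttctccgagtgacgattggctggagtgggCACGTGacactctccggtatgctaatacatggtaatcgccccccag
Phc3, chr3:30969452-30969537, minus strand: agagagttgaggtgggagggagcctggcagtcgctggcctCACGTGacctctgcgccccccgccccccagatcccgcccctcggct
Bmi1, chr2:18676768-18676848, plus strand: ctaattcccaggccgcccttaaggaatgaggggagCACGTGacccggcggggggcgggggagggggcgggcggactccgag
Pcgf2, chr11:97699740-97699825, minus strand: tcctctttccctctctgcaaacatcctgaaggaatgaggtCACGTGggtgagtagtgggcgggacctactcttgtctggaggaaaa

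The distance from the box to the start site was 26 bases in Cbx6, 98 in Cbx8, 57 at the first start of Phc2, 82 in Phc3, 215 in Bmi1 and 137 in Pcgf2. Phc1, Cbx7 and the other Phc2 windows had none. Among windows with at least the lowest GC content of the members (49.6%), 7.81% held the word, and among windows under a PCGF6 peak 11.3% in WT crypts and 13.9% in ESC did. By gene, 6 of 8 members had it in any window against 6.86% of the 27025 genes with a window. That set is not the 21887 protein-coding genes used for the other shares. In 5 of the 6 stretches the box was part of CACGTGAC on one of the strands, a longer word picked after these stretches had been read, which 1.85% of all windows hold. GCGGGAA and AGGTGTGA were in none of the member windows, against 3.82% and 1.12% of all windows. A PCGF6 peak lay over the box itself only at Phc2 (crypts and ESC) and Cbx8 (ESC). The Pcgf2 window touched PCGF6 peaks of both sources, but the box was just outside them. At Cbx6 only H2AK119ub1 of AhCre crypts covered the box, and at Bmi1 and Phc3 no peak of any list did. A match is a description of the letters and does not show that a factor is bound there.

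**Figure D1:**
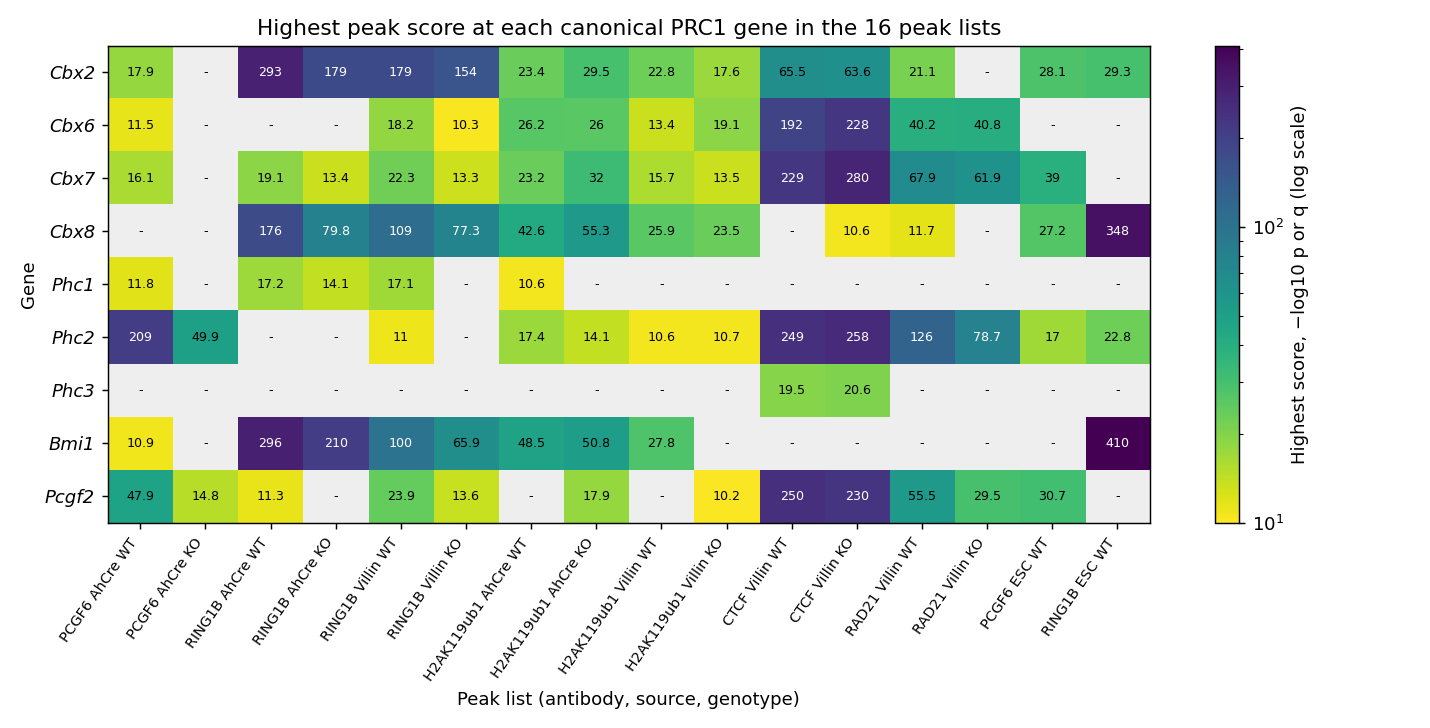
Highest peak score (−log10 p or q, colour on a log scale, number printed in each cell) at each of the 9 genes (rows) in each of the 16 lists (columns), with a dash where the list had no peak in the gene or within 1 kb. Cbx2, Cbx8 and Bmi1 have the high RING1B scores, while Cbx6, Cbx7, Phc2 and Pcgf2 have the high CTCF scores, and Phc3 has CTCF only.

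Most of the members had RING1B and H2AK119ub1 in crypts. RING1B lay at 6 of 9 members in AhCre WT crypts against 9.22% of all genes, and at 8 of 9 in Villin WT crypts against 17.0%. In KO crypts it lay at 5 (AhCre, 5.97% of all genes) and 6 members (Villin, 9.30%). H2AK119ub1 was at 7 of 9 members in AhCre WT crypts (20.6% of all genes) and at 7 in KO (22.5%), with Phc1 in WT only and Pcgf2 in KO only. In Villin crypts it was at 6 in WT (13.6%) and 6 in KO (11.8%), with Bmi1 in WT only and Pcgf2 in KO only. PCGF6 lay at 7 of 9 members in WT crypts, where 47.9% of all genes had it, and at 2 in KO crypts (17.7%). In ESC, PCGF6 was at 5 members (28.6% of all genes) and RING1B at 4 (21.1%). CTCF was at 6 members in WT and 7 in KO crypts, with 49.0% and 47.7% of all genes, and RAD21 at 6 and 4, with 38.9% and 32.6%. With a minimum score of 20, PCGF6 in WT crypts was at 2 members (26.8% of all genes). For RING1B the AhCre libraries then had 3 members in WT (3.38%) and 3 in KO (2.07%), and the Villin libraries 5 in WT (5.28%) and 3 in KO (2.52%). H2AK119ub1 was then at 5 in AhCre WT (8.36%) and 5 in KO (9.79%), and at 3 in Villin WT (3.04%) and 1 in KO (2.30%).

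**Figure D2:**
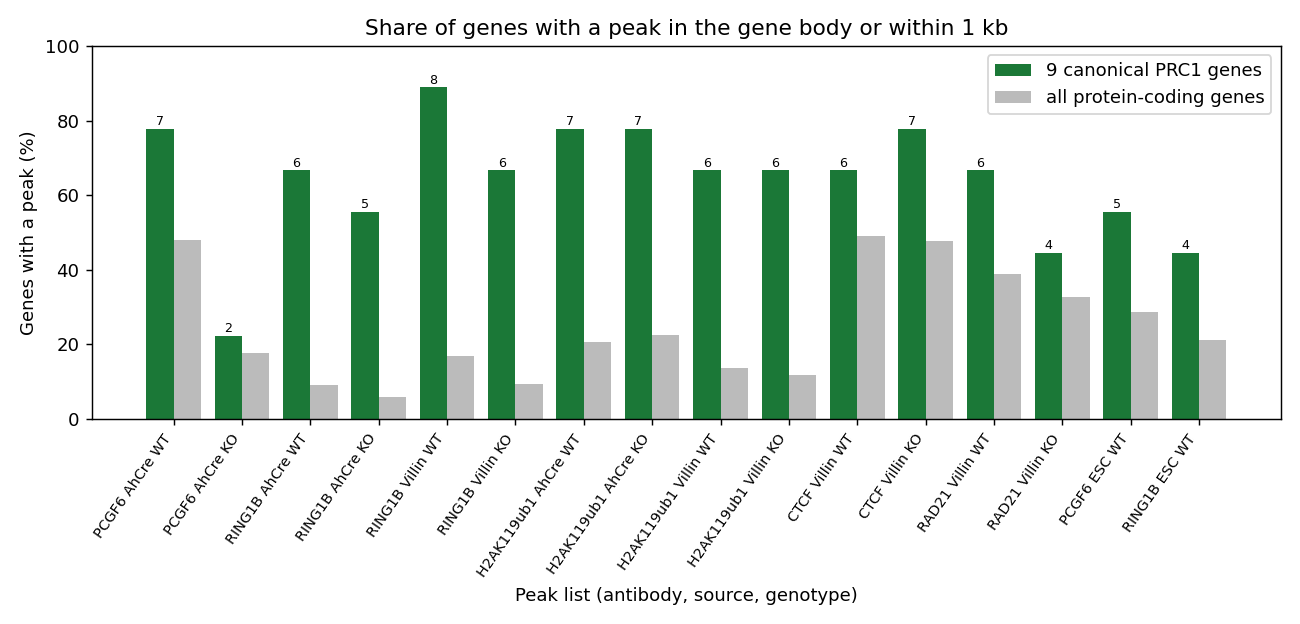
Share of genes (y axis, percent) with a peak in the gene body or within 1 kb in each of the 16 lists (x axis), for the 9 canonical PRC1 genes (green, with the number of genes above the bar) and for all protein-coding genes (grey). The green bars stand farthest above the grey ones for RING1B and H2AK119ub1 in crypts, and closest for PCGF6 in KO crypts, at 2 genes.

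Among the readers, Cbx2 and Cbx8 lie side by side on chromosome 11 and carried the strong RING1B of the CBX genes. CBX2 compacts nucleosomes besides reading H3K27 methylation, and CBX8 is another reader of that mark. The RING1B score at Cbx2 (chr11:119023019-119031275) was 293 in AhCre WT and 179 in AhCre KO crypts. In Villin crypts it was 179 in WT and 154 in KO, and in ESC it was 29.3. All 4 crypt values came from peaks at the same gene end, within 119020465-119023640, and each lay above at least 95.5% of the peaks of its list. This stretch lies within the long non-coding RNA gene Gm35829 (119011305-119023839), and the AhCre peaks had 0 bp in the Cbx2 body. These peaks cannot be assigned to Cbx2 alone. PCGF6 at this end scored 17.9 in WT crypts and 28.1 in ESC, and had no KO peak within 22389 bp.

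H2AK119ub1 flanked that end of Cbx2 with a pair of peaks in every crypt library. The outer peak had scores of 23.4 (AhCre WT), 29.5 (AhCre KO), 22.8 (Villin WT) and 17.6 (Villin KO). The inner peak scored 22.2, 24.2, 16.9 and 17.0 in the same order. All 8 peaks had a counterpart in the other genotype. At the inner edge of the outer peak, and overlapping it, sat CTCF (65.5 in WT, 63.6 in KO) with a RAD21 peak of 21.1 in WT that had no KO peak within 10576 bp.

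At Cbx8 (chr11:119036303-119040913, minus strand) RING1B formed a broad domain that began close to the start site and ran upstream of it. In AhCre WT crypts it was a single peak of 18236 bp (119041091-119059326, score 176), and in KO crypts the overlapping peak was 8693 bp wide (119041175-119049867, score 79.8). In Villin crypts the peak next to Cbx8 was 10023 bp wide in WT (score 109) and 8167 bp in KO (score 77.3). The rest of the WT domain was held in KO crypts by shorter peaks of lower score, 44.5 and 15.1 in the AhCre line and 45.7 and 16 in the Villin line. In ESC 1 RING1B peak of 26249 bp with a score of 348 covered the whole gene and the upstream domain. Inside the gene and just past its 3′ end, weak WT peaks of RING1B scored 11.9 and 11.4 (AhCre, no KO peaks) and 10.4 and 15.9 (Villin, with a KO peak of 12.5 at the former).

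The same upstream domain held PCGF6, although Cbx8 itself had no PCGF6 peak in crypts. In AhCre WT crypts PCGF6 scored 143 (119044664-119048009), 44.8 and 324 along the domain, and in KO crypts 29.0 and 69.1 remained at the outer ones. In ESC, PCGF6 in the domain scored 11.1, 16.8, 15.4 and, at its far end, 42.5. ESC also had PCGF6 over the Cbx8 start (27.2), inside the gene (16.9) and past its 3′ end (15.7). H2AK119ub1 in the domain ran over 11419 bp in AhCre WT crypts (score 42.6) and 11449 bp in KO (43.3). In Villin crypts it ran over 7211 bp in WT (25.9), and in KO the stretch held 3 peaks with scores of 23.5, 15.4 and 15.3. A further H2AK119ub1 peak beyond the 3′ end of Cbx8 had the highest score of the gene in AhCre KO crypts (39.2 in WT, 55.3 in KO), and scored 24.5 and 15.0 in Villin crypts. Within 20 kb of Cbx8, RING1B peaks covered 22710 bp in WT and 15502 bp in KO AhCre crypts, and 22456 and 16596 bp in Villin crypts. H2AK119ub1 covered 24977 and 24892 bp in AhCre crypts, and 17737 and 11080 bp in Villin crypts. In this window, which also takes in the peaks at the end of Cbx2, RING1B cover was narrower in the KO library of either line. H2AK119ub1 cover was narrower in that of the Villin line. The KO lists concerned were also shorter than their WT lists. For RING1B they held 1662 and 2368 peaks (AhCre) and 2464 and 4403 (Villin), and for H2AK119ub1 5492 and 6219 (Villin). Cover was not measured over all genes, and the part of list length in it was not tested.

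**Figure D3:**
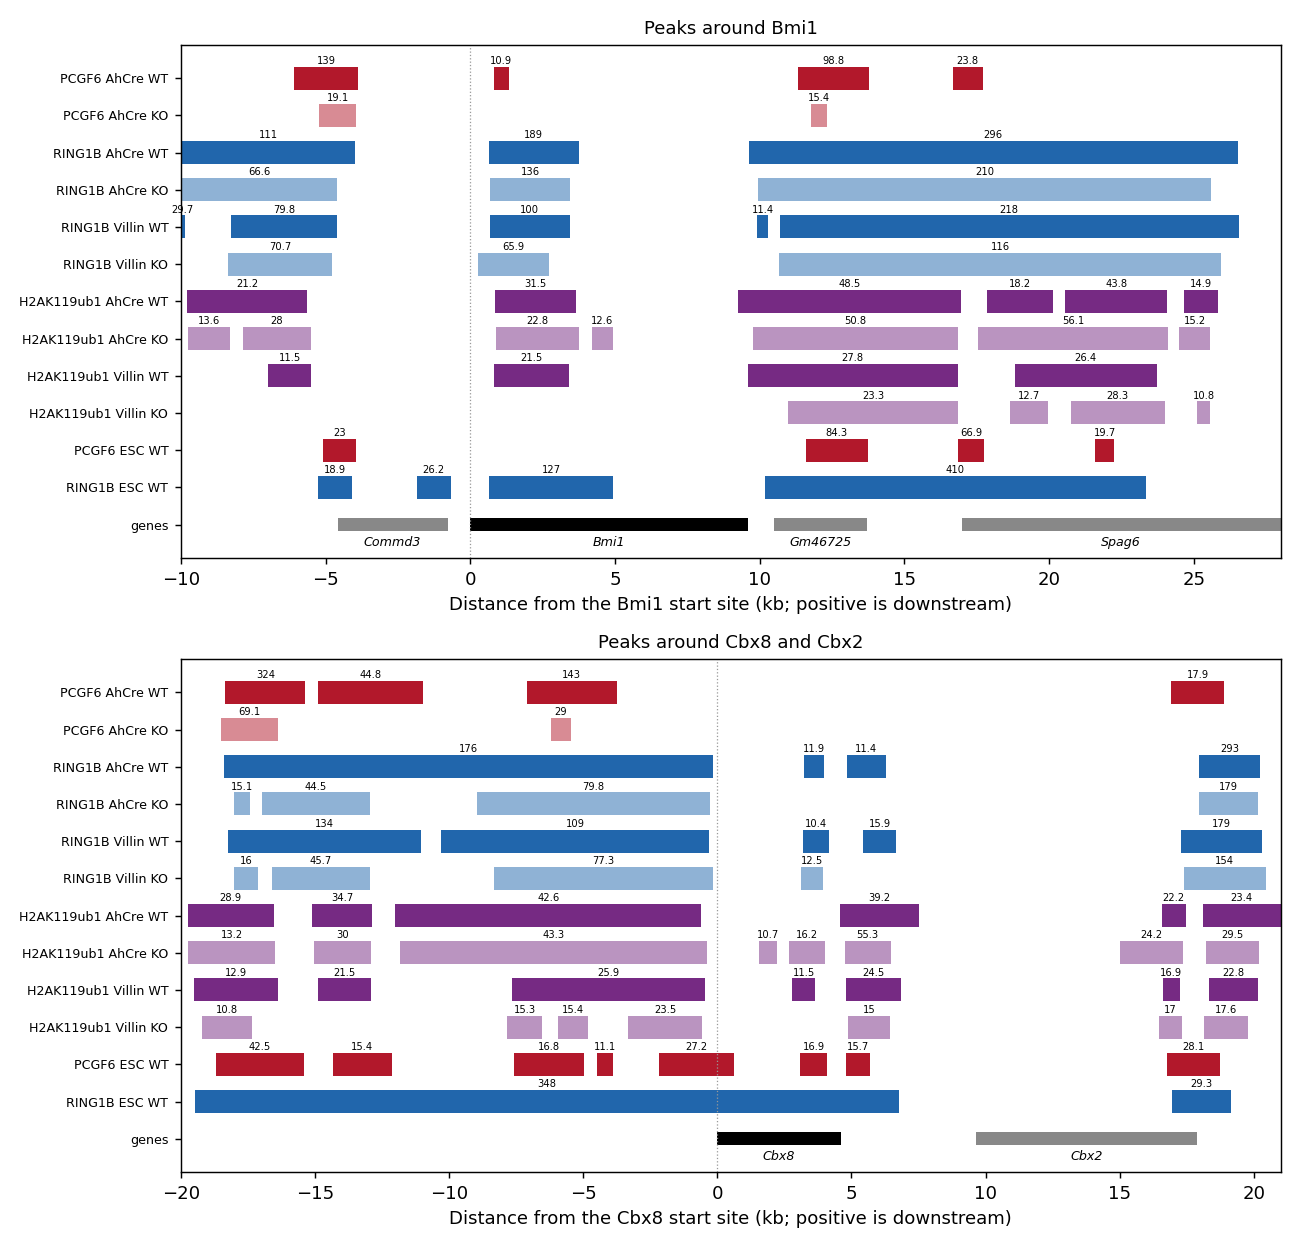
Peaks of PCGF6 (red), RING1B (blue) and H2AK119ub1 (purple) around Bmi1 and around Cbx8 with Cbx2, by distance from the start site (x axis, kb), 1 row per library, full colour for WT and pale for KO, with each peak's score above it and genes at the bottom. RING1B domains lie on either side of the Bmi1 gene and upstream of Cbx8, and the PCGF6 scores in them were 139 and 98.8 (Bmi1) and 143 and 324 (Cbx8) in WT, and 19.1, 15.4, 29.0 and 69.1 in KO.

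Cbx6 and Cbx7, near each other on chromosome 15, had weak RING1B with strong CTCF. CBX7 is the reader most linked to stem cell self-renewal, and CBX6 is among the least studied of the family. At Cbx6 (chr15:79823898-79834333, minus strand) RING1B was seen only in Villin crypts, with 18.2 in WT and 10.3 in KO. PCGF6 had scores of 10.7 and 11.5 in WT crypts and no KO peak. H2AK119ub1 covered the start site in AhCre crypts, as a peak of 9651 bp with a score of 26.2 in WT and of 4715 bp with 26.0 in KO. In Villin crypts its highest peak scored 13.4 in WT and 19.1 in KO, at different places in the gene. Every peak at Cbx6 also lay in the region of Npcd, which overlaps it, so the peaks cannot be assigned to Cbx6 alone.

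At Cbx7 (chr15:79915804-79971143, minus strand) RING1B sat over the start site or within 531 bp of it in all 4 crypt libraries. Its score was 19.1 in AhCre WT and 13.4 in KO, and 22.3 in Villin WT and 13.3 in KO, with none in ESC. PCGF6 had 3 weak WT peaks (16.1, 14.3 and 12.0) and no KO peak. Its ESC peak, with a score of 39.0, lay at another position, 6265 bp upstream of the start but within the annotated gene. H2AK119ub1 next to the start scored 13 in AhCre WT and 32.0 in AhCre KO crypts. In Villin crypts the same site scored 10.6 in WT and 13.5 in KO, so the KO score was the higher in either line at this site. The gene's highest score goes the other way in the Villin line (15.7 and 13.5), because its highest WT peak was another one, 692 bp inside the gene, with no KO counterpart.

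The PHC genes, whose products polymerise, differed in which proteins they carried. Phc1 (chr6:122317731-122340227, minus strand) had a RING1B peak 829 bp inside the gene with a score of 17.2 in AhCre WT and 14.1 in AhCre KO crypts. The same site scored 17.1 in Villin WT crypts and had no Villin KO peak within 1206686 bp. H2AK119ub1 was called there in AhCre WT crypts alone, at 10.6, and PCGF6 at the start site in WT crypts alone, at 11.8. Phc1 had no CTCF, RAD21 or ESC peak. Phc3 (chr3:30899295-30969479, minus strand) had no PCGF6, RING1B or H2AK119ub1 peak in any list, although its promoter holds the E-box shown above. Its peaks were CTCF (19.5 in WT and 20.6 in KO at one site, and 11.6 in KO at another).

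Phc2 (chr4:128654655-128752881, plus strand) held the strongest PCGF6 peak of the 9 genes. It lay 15352 bp downstream of the first start, at 128670054-128671640, and scored 209 in WT crypts, above 99.0% of its list, and 49.9 in KO crypts, above 94.6%. The site had RING1B of 11 in Villin WT crypts only, no H2AK119ub1 and no ESC peak. A different PCGF6 peak covered the first start and its E-box with a score of 38.9 in WT crypts and none in KO, and ESC had PCGF6 of 10.2 there and RING1B of 22.8 beginning 233 bp past the start. Farther PCGF6 peaks of 10.9, 12.5 and 11.8 in WT had no KO peak. H2AK119ub1 at Phc2 sat elsewhere, around a strong site of CTCF (249 in WT, 258 in KO) and RAD21 (126 and 78.7) some 15 kb before a later start. Its highest scores there were 17.4 and 14.1 in AhCre WT and KO crypts and 10.6 and 10.7 in Villin WT and KO crypts. The mark overlapped the weak PCGF6 peak of 12.5 and neither the strong PCGF6 peak nor RING1B. ESC had PCGF6 of 17 at the CTCF site.

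**Figure D4:**
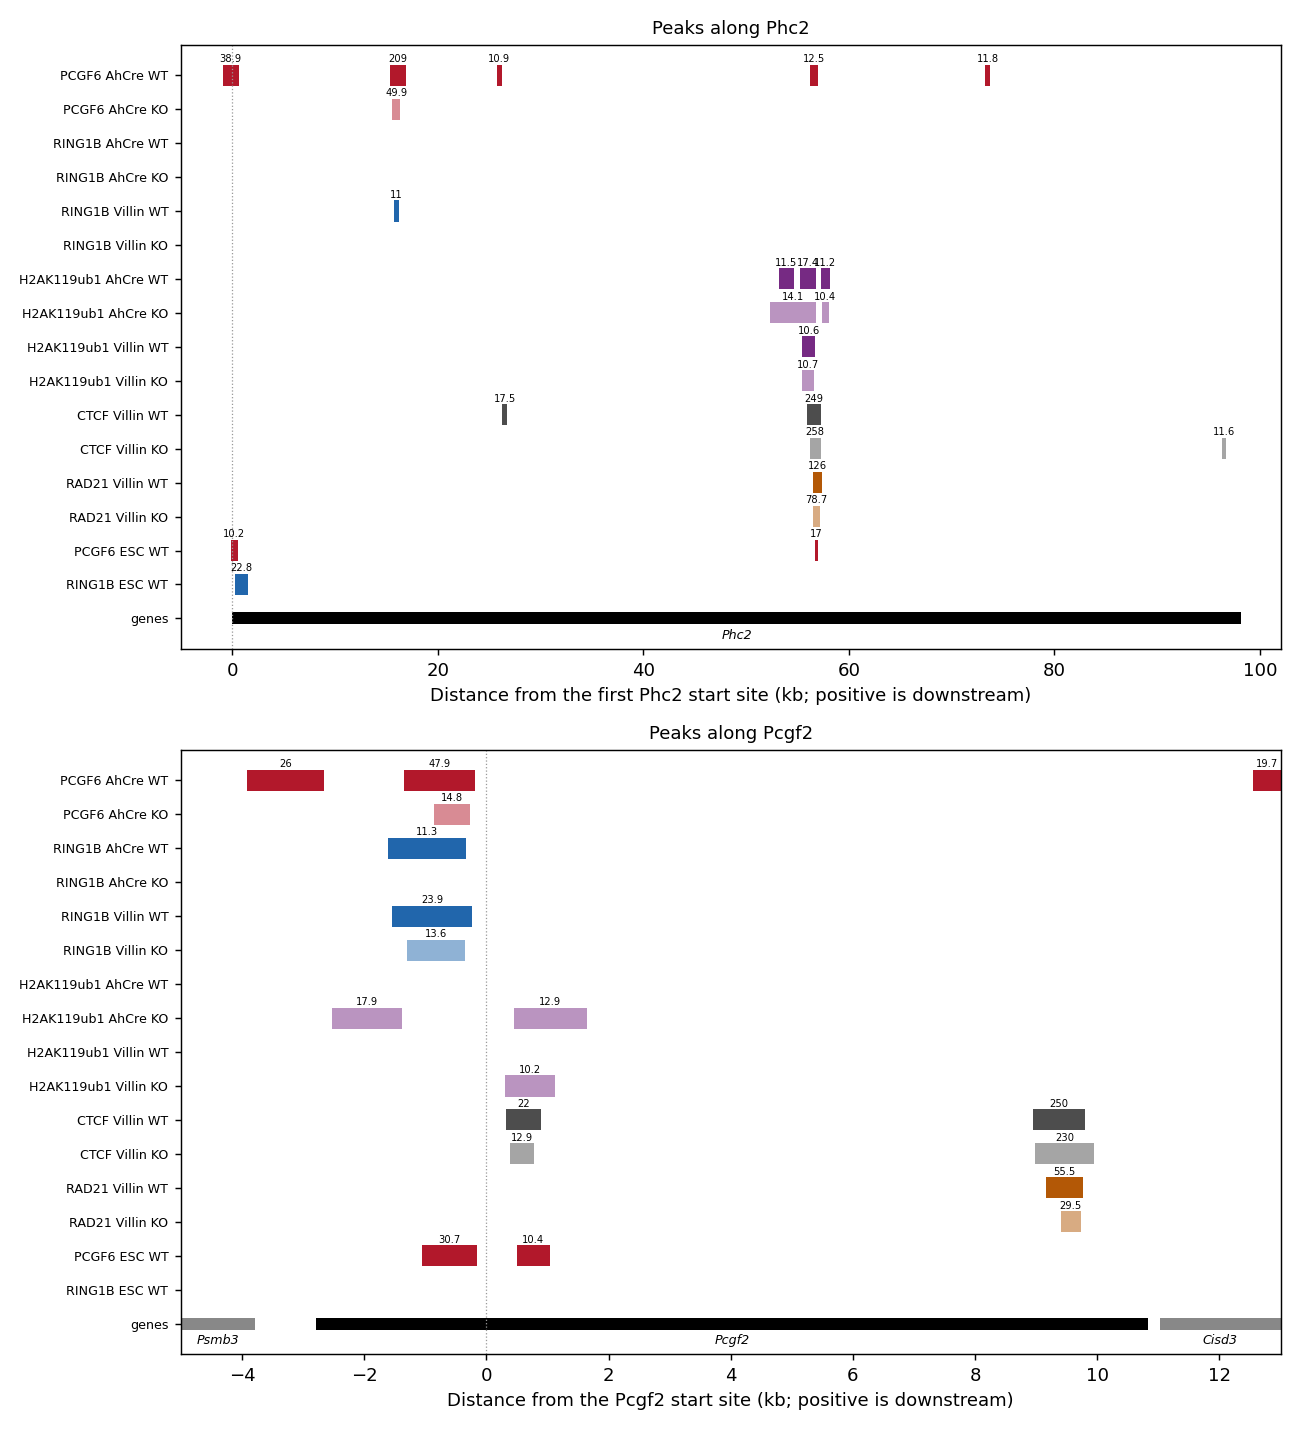
Peaks of all 16 lists along Phc2 and Pcgf2, by distance from the first Phc2 start and the Pcgf2 start (x axes, kb), 1 row per library, full colour for WT and pale for KO, with scores above the peaks. At Phc2 the PCGF6 peak of 209 lies apart from the H2AK119ub1, CTCF and RAD21 peaks, and at Pcgf2 H2AK119ub1 is seen in the KO rows only, at 17.9, 12.9 and 10.2.

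Bmi1 and Pcgf2 encode the alternative PCGF subunits of canonical PRC1, and their regions looked unlike each other. Bmi1 (chr2:18677018-18686629, plus strand) had a RING1B peak inside the gene, beginning 641 bp after the start in AhCre WT crypts. Its score was 189 in AhCre WT and 136 in KO, 100 in Villin WT and 65.9 in KO, and 127 in ESC. A RING1B domain downstream of the gene, shared with Gm46725 and Spag6, scored 296 (AhCre WT), 210 (AhCre KO) and 410 (ESC), and in Villin crypts, where it lay just beyond 1 kb, 218 in WT and 116 in KO. The KO value was the lower in all 4 WT and KO pairs of these values. PCGF6 inside Bmi1 was weak (10.9 in WT, none in KO or ESC). Stronger PCGF6 lay outside the 1 kb, at Commd3 upstream (139 in WT, 19.1 in KO) and in the downstream domain (98.8 and 15.4). No CTCF or RAD21 peak lay at Bmi1.

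H2AK119ub1 within Bmi1 had a lower score in KO than in WT crypts of the AhCre line, and was not called in KO crypts of the Villin line. The peak inside the gene scored 31.5 in AhCre WT and 22.8 in AhCre KO crypts. In Villin crypts it scored 21.5 in WT over 2594 bp, and the nearest KO peak was 7581 bp away. The downstream domain was called in all 4 libraries, with 48.5 and 50.8 in AhCre WT and KO crypts and 27.8 and 23.3 in Villin WT and KO crypts. In Villin KO crypts it began at 18687998, more than 1 kb past the gene, so Bmi1 has no Villin KO peak by the rule, and yet is not counted as having lost the mark. Within 20 kb of Bmi1, H2AK119ub1 covered 21628 bp in AhCre WT and 22189 bp in AhCre KO crypts, against 16227 and 10874 bp in Villin WT and KO crypts. This cover includes peaks at neighbouring genes and was not measured over all genes.

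Pcgf2 (chr11:97688821-97702434, minus strand) had PCGF6 and RING1B together just upstream of its start site, within the annotated gene, which extends past that start. PCGF6 scored 47.9 in WT and 14.8 in KO crypts, and 30.7 in ESC. A second PCGF6 peak, 2656 bp upstream and shared with Psmb3, scored 26.0 in WT and had no KO counterpart. RING1B over the first of these scored 11.3 in AhCre WT crypts, with no KO peak, and 23.9 in Villin WT and 13.6 in Villin KO crypts. ESC had no RING1B peak there.

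Pcgf2 was the one member at which H2AK119ub1 was gained. Neither WT library had a peak of the mark there, and the nearest WT peaks were 65712 bp (AhCre) and 66445 bp (Villin) from the KO peaks. AhCre KO crypts had peaks of 12.9 and 17.9 on either side of the start, and Villin KO crypts a peak of 10.2 at 97698523-97699351, within the AhCre KO peak of 12.9. The Villin value is at the lower limit of its list. Pcgf2 was 1 of 2 members with no WT peak in either line, the other being Phc3. Over all genes without one, 0.333% had a gain in both. The CTCF site at its 3′ part scored 250 in WT and 230 in KO, and RAD21 there scored 55.5 and 29.5.

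Loss of Pcgf6 was then followed over all members. A gene is counted as having lost a protein or mark where it had a WT peak in its region, no KO peak there, and no WT peak that overlapped a KO peak by 1 bp, and gains are the reverse. PCGF6 was lost at 5 of the 7 members that had it (Cbx2, Cbx6, Cbx7, Phc1 and Bmi1) against 62.7% of all genes with a WT peak, and gained at 0 of the other 2 (0.166%). Phc2 and Pcgf2, which had the highest WT scores, had a KO peak, and in both cases with the lower score, as did 98.5% of all genes with peaks in both. By peak, 13 of 15 PCGF6 peaks at members had no KO peak against 71.1% of peaks at all genes. For WT scores under 20 this was 11 of 11 (92.7%), and for scores of 20 or more 2 of 4 (45.2%). The members' share of lost PCGF6 was near that of all genes. Only 2 members had a WT peak once a minimum score of 20 or lists of equal length were used, and the loss was then counted at 1 of 2 (78.1% of all genes) and 0 of 2 (27.5%).

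RING1B was lost at few of the members. In AhCre crypts 1 of 6 members lost it (Pcgf2) against 45.2% of all genes, and in Villin crypts 2 of 8 (Phc1 and Phc2) against 52.7%. No member lost it in both lines, of 6 with a WT peak in both (18.5% of all such genes did). None gained it, of 3 in AhCre crypts (1.02%), of 1 in Villin crypts (1.59%) and of 1 in both lines (0.0670%). By peak, 3 of 9 AhCre (45.2%) and 4 of 11 Villin peaks (54.6%) had no KO peak. These were weak peaks. Under a score of 20, 3 of 5 (AhCre, 64.3%) and 4 of 6 (Villin, 69.8%) had none, and at 20 or more 0 of 4 (10.6%) and 0 of 5 (18.3%). Within these score bands, each with few member peaks, the members' shares were near those of all genes. All WT peaks of 20 or more at members thus overlapped a KO peak, some of them a KO peak under 20. With a minimum score of 20 in WT and KO alike, RING1B was lost at 0 of 3 members in AhCre (44.5% of all genes) and 2 of 5 in Villin crypts (56.2%). Cutting the lists to equal length gave 0 of 5 (33.4%) and 1 of 7 (34.2%).

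The highest RING1B score was the lower in KO crypts at every member that had peaks in both genotypes. This held at 5 of 5 members in AhCre crypts, where 75.7% of all genes showed it, and at 6 of 6 in Villin crypts, where 79.4% did. Of the 4 members with peaks in all 4 lists, 0 went opposite ways in the Cre lines, against 32.8% of all such genes. Those 4 were Cbx2, Cbx7, Cbx8 and Bmi1. The direction is that of most genes, and without replicate libraries its error is unknown.

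**Figure D5:**
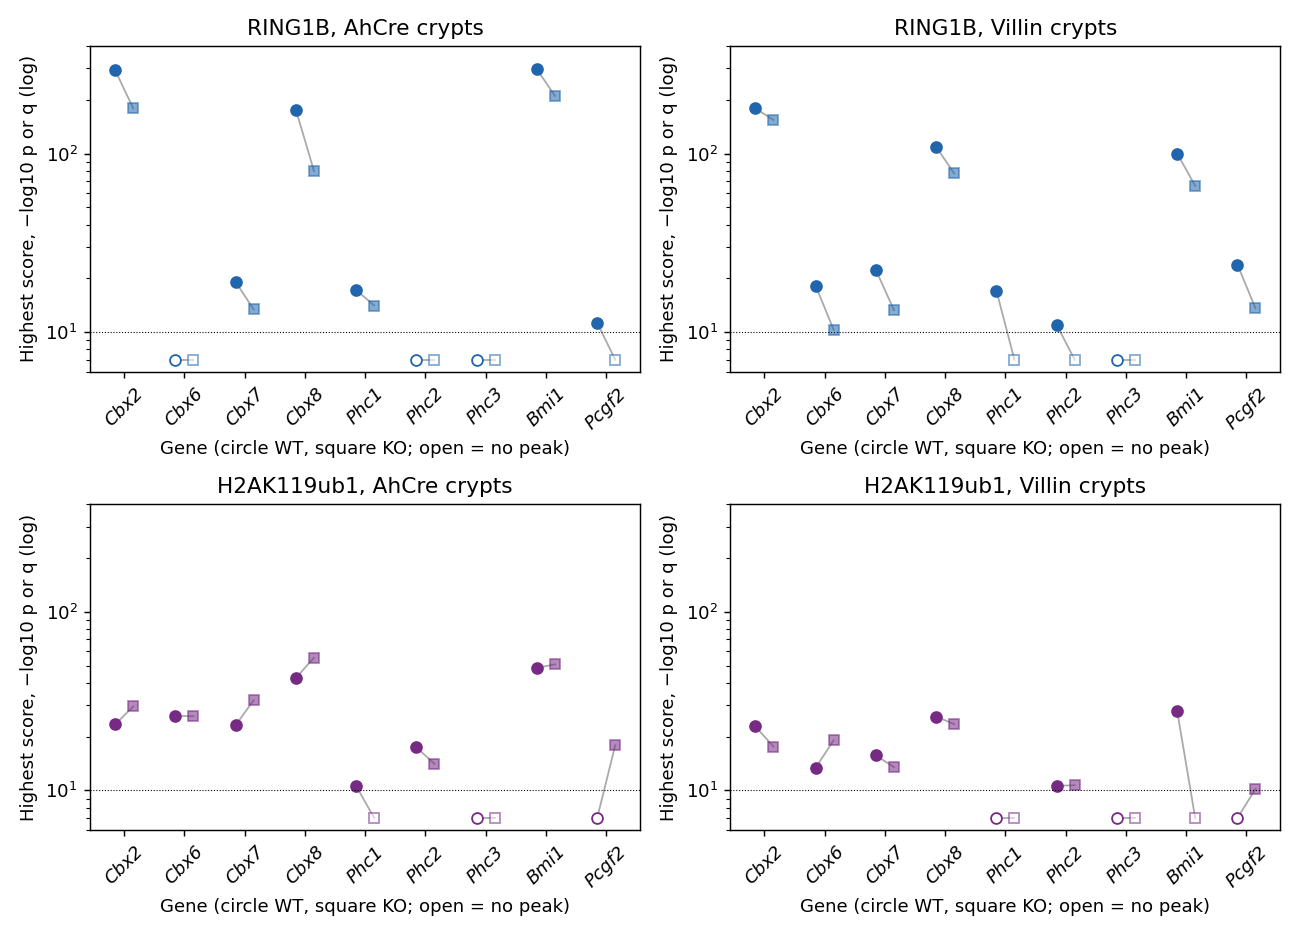
Highest score (y axis, −log10 p or q, log scale) of RING1B and H2AK119ub1 at each of the 9 genes (x axis) in AhCre and Villin crypts, circles for WT, squares for KO, open symbols under the dotted line at 10 for no peak, each point 1 library. RING1B squares lie under their circles at all 5 (AhCre) and 6 (Villin) members with both, while H2AK119ub1 squares lie above or below them.

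H2AK119ub1 was lost at 1 of 7 members in AhCre crypts (Phc1, a peak of 10.6, 13.1% of all genes) and at 0 of 6 in Villin crypts (28.2%). It was gained at 1 of 2 (5.80%) and at 1 of 3 (2.45%), both times Pcgf2, and lost in both lines at 0 of 6 (1.69%). By peak, 3 of 17 in AhCre (26.4%) and 5 of 13 in Villin crypts (40.8%) had no KO peak. The highest score was the lower in KO crypts at 2 of 6 members in AhCre crypts (38.6% of all genes) and 3 of 5 in Villin crypts (60.1%). The highest score of all 5 members with peaks in all 4 lists (Cbx2, Cbx6, Cbx7, Cbx8 and Phc2) went opposite ways in the lines, against 54.5% of all such genes. At Cbx6 and Phc2 the difference in one of the lines was under 1 unit of score. At Cbx7 (either line), Cbx8 (AhCre) and Cbx6 (Villin) the highest WT and KO scores came from different peaks. The AhCre KO list was longer than its WT list (16039 and 13175 peaks) and the Villin KO list shorter (5492 and 6219). The part of list length in these directions was not tested.

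CTCF was lost at 0 of 6 members (5.94% of all genes) and gained at 1 of 3 (3.25%), Cbx8, with a score of 10.6. By peak, 1 of 11 had no KO peak (10.3%). The highest CTCF score was the lower in KO crypts at 2 of 6 members (53.4%). Strong CTCF sites had scores of 192 in WT and 228 in KO at Cbx6, and of 229 and 280 at Cbx7. RAD21 was lost at 2 of 6 members (21.3%), Cbx2 (21.1) and Cbx8 (11.7), and gained at 0 of 3 (3.22%). With 5 kb on either side of the gene RAD21 was lost at 0 of 6 members (17.4% of all genes). By peak, 2 of 8 had no KO peak (28.8%), and the highest score was the lower in KO crypts at 3 of 4 members (65.7%). RAD21 scored 67.9 in WT and 61.9 in KO at Cbx7, and 40.2 and 40.8 at Cbx6. Of 8 RAD21 peaks at members 7 overlapped CTCF, as did 83.5% of RAD21 peaks at all genes.

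RING1B at the members mostly came with H2AK119ub1, and in part with PCGF6. Of the members with RING1B, 5 of 6 in AhCre WT crypts (74.7% of all genes) and 6 of 8 in Villin WT crypts (46.8%) also had H2AK119ub1. Of 7 members with PCGF6 in AhCre WT crypts, 5 had RING1B as well, against 13.9% of all genes with PCGF6. Peak on peak, 4 of 15 PCGF6 peaks (26.7%) overlapped RING1B, at Cbx2, Cbx7, Bmi1 and Pcgf2, against 8.91% of PCGF6 peaks at all genes. With H2AK119ub1 it was 6 of 15 against 13.7%. All 9 RING1B peaks of AhCre WT crypts overlapped one of Villin WT crypts (84.7% of peaks at all genes), and 9 of 11 did in the reverse direction (46.3%). Of 11 CTCF peaks 4 overlapped H2AK119ub1 of Villin WT crypts, at Cbx2, Cbx6, Cbx7 and Phc2, against 4.88% of CTCF peaks at all genes. The part of peak length and score in these shares was not tested.

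Between crypts and ESC the members fell into different patterns. PCGF6 was present in ESC at 4 of the 7 members with it in WT crypts (Cbx2, Cbx7, Phc2 and Pcgf2, against 43.2% of all genes), and RING1B at 3 of 6 (Cbx2, Cbx8 and Bmi1, against 67.2%). For PCGF6 this was 1 of 2 with a minimum score of 20 (30.6% of all genes), 2 of 2 with lists of equal length (54.8%) and 2 of 6 with gene ends only (39.6%). Bmi1, Cbx2 and Cbx8 had RING1B in either source, and Cbx6, Cbx7, Phc1 and Pcgf2 had RING1B in crypts only. Phc2 had RING1B 233 bp past the first start in ESC, where the crypt lists had none. Only 1 of the 2 description lines of each ESC sample matches its title, and the titles and antibody tags were followed.

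Other Polycomb genes, taken from lists by complex, were set beside the members. Ring1, which encodes the alternative ligase RING1A, had RING1B of 10.3 in AhCre WT crypts and none in KO, and of 17.1 in Villin WT and 10.3 in Villin KO crypts. Rnf2, which encodes RING1B itself, had no RING1B peak in any list and a PCGF6 score of 10.7 in WT crypts. RING1B in AhCre WT crypts was at 2 of the 5 other canonical PRC1 genes, against 6 of 9 members and 9.22% of all genes. It was at 4 of 19 variant PRC1 genes, at 2 of 10 PRC1.6 genes and at 1 of 13 PRC2 genes. H2AK119ub1 there was at 3 of 5, 7 of 19, 2 of 10 and 2 of 13 in the same order, against 7 of 9 members and 20.6% of all genes. PCGF6 in WT crypts was at 4 of 5, 15 of 19, 10 of 10 and 11 of 13, against 7 of 9 members and 47.9% of all genes. Its scores at the PRC1.6 genes included 1678 at Mga and 318 at Tfdp1. In Villin crypts RING1B was lost at 4 of the 5 PRC1.6 genes that had it (E2f6, Tfdp1, Tfdp2 and Hdac2), and at 2 of 8 members. It was lost at 0 of 2 other canonical, 4 of 7 variant PRC1 and 1 of 4 PRC2 genes, and at 52.7% of all genes. In AhCre crypts RING1B was lost at 1 of 2 PRC1.6 and 1 of 2 other canonical genes. The counts were 1 of 4 for variant PRC1 and 0 of 1 for PRC2, against 1 of 6 members and 45.2% of all genes. With so few genes the AhCre line does not show whether the contrast repeats. The differences between these lists were not tested.

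Likeness over the 16 lists was measured by Pearson's r of log10(1 + highest score), with 0 where there was no peak, for the 3 members with most lists. Lists of the same antibody share features, so r is a description. The protein-coding genes most like Cbx2 were Cdkn2a (r = 0.939 over 16 lists), Tbx2 (0.907) and Cyp24a1 (0.891). Those most like Cbx7 were Notum (0.983), Anxa6 (0.977) and Asap1 (0.964), and those most like Phc2 were 9830107B12Rik (0.974), Lpin1 (0.968) and Mzf1 (0.959).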

How the data were processed

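ChIP-seq peak lists of 16 of 22 samples were used as deposited, and 6 inputs without a list were not used here. Per the submitters' processing notes, the tools were MACS2 2.1.1 with Bowtie 1.1.2 and 1.2.2, and the builds named, with no roles, were hg38, dm6 and mm10. The deposited scores are −log10 p or q values that the authors' caller gave each peak, in 1 library each, with WT input named as the reference. All were 10 or more, so weaker signal was not seen. No read counts were given, so depth and counting error are unknown.

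Starts were converted to 1-based positions, and peaks on chromosomes 1 to 19, X and Y were kept. A gene region was the RefSeq gene (GRCm38, the same coordinates as mm10) with 1 kb on either side. Peaks matched when 1 bp overlapped. With 1 library per group no test was run. Every peak of the 9 genes was named by rule, with genes sharing those peaks, the 3 genes most like each of 3 members, and Polycomb genes of fixed lists. Some genes that this rule names are left out of the text. The members and lists were chosen with earlier results of these data known. Tried alternatives were a minimum score of 20, lists of equal length, 50% coverage, gene ends only and 5 kb on either side. The split at a score of 20 was added after seeing the data. As a check of the code, every peak of 200 genes was deleted from each of 4 WT lists. All 200 were called lost each time, which follows from the definition of a loss. Calls were wrong at 0 genes, where other genes emptied by the same deletions were counted as lost. Overlaps differed from bedtools 2.31.1 in 0 of 14 pairs. Python 3.11.15, numpy 2.4.6, pandas 2.3.3 and matplotlib 3.10.9 were used.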

Additional observations from a re-analysis of the deposited data

Results flagged for a closer look

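The highest H2AK119ub1 score of 5 members moved one way in AhCre crypts and the other way in Villin crypts, with 1 library per genotype and line, and the difference was not tested. KO minus WT was 6.07 in AhCre and -5.18 in Villin crypts at Cbx2, 8.82 and -2.20 at Cbx7, and 12.69 and -2.40 at Cbx8. At Cbx6 it was -0.14 and 5.70, and at Phc2 -3.31 and 0.11. Of all genes with a peak in the same 4 lists, 54.5% moved in opposite directions.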

How the results depend on the processing

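Counts are of members with a WT peak under the same setting, with the share over all genes. With a minimum score of 20, lost peaks were found at 1 of 2 members for PCGF6 (78.1%; 5 of 7 in the report), 0 of 3 for RING1B AhCre (44.5%; 1 of 6), 0 of 5 for H2AK119ub1 AhCre (13.6%; 1 of 7), 1 of 3 for H2AK119ub1 Villin (43.4%; 0 of 6) and 1 of 5 for RAD21 (16.7%; 2 of 6). PCGF6 was in crypts and ESC at 1 of 2 (30.6%; 4 of 7). With lists of equal length these were 0 of 2 for PCGF6 (27.5%), 0 of 5 for RING1B AhCre (33.4%), 1 of 7 for RING1B Villin (34.2%; 2 of 8), 1 of 5 for RAD21 (13.4%) and 2 of 2 for PCGF6 in crypts and ESC (54.8%). With gene ends only they were 0 of 4 for RING1B AhCre (44.7%), 1 of 5 for RING1B Villin (53.7%), 0 of 4 for H2AK119ub1 AhCre (12.8%) and 2 of 6 for PCGF6 in crypts and ESC (39.6%). With 50% of the WT peak covered RING1B AhCre gave 2 of 6 (53.4%), and with 5 kb on either side RAD21 gave 0 of 6 (17.4%). Fewer peaks enter the strict and the equal lists by construction, and the cause of the other shifts was not tested. The other 26 counts moved by at most 1.5 times, CTCF in all 5 alternatives included. The number of members with a WT peak could change all the same, and with it the share. With gene ends only RAD21 was lost at 2 of 2 (41.1%; 2 of 6) and PCGF6 at 6 of 6 (64.4%), and with 5 kb PCGF6 at 4 of 8 (59.5%). With a minimum score of 20, RING1B Villin was lost at 2 of 5 (56.2%), and RING1B was in crypts and ESC at 3 of 3 (71.1%; 3 of 6). No paired analysis was possible because every group had 1 library, and leaving one out was not possible for the same reason. Scores near 10 are the limit of each list.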
